A study of Mus musculus with 24 samples.

Results

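Expression was followed for 9 mouse genes that act in the block that myelin sets on growing axons: 4 ligands (Rtn4, Omg, Sema4d, Efnb3) and 5 receptor genes (Rtn4r, Rtn4rl1, Rtn4rl2, Lingo1, Tnfrsf19). They were taken by name from a table of 21965 genes, and all 9 were among the 17167 genes that passed the minimum of 10 counts over all libraries. The tissue was spinal cord of OL-Ribotag mice (C57Bl/6), in which tamoxifen turns on an HA-tagged ribosomal protein (rpl22HA) through a Cre allele active in mature oligodendrocytes, so that RNA on ribosomes of oligodendrocytes (OLs) can be pulled down. All animals, controls included, carried both alleles and received tamoxifen, and the study describes them as female. Naive mice were compared with mice at 3 times after injury, given as days post-injury (dpi 2, dpi 10 and dpi 42). The injury was a T9 contusion of 50 kdyn. The labels give an age of 10 to 12 weeks at injury and the study's methods a younger one. Naive tissue was collected together with that of dpi 42. By the study's account, naive mice were thus older and longer past tamoxifen than mice of dpi 2 and dpi 10. In changes at dpi 2 and dpi 10 these differences cannot be told apart from injury. Each of the 4 groups had 3 pools of 2 mice, and each pool gave 1 total RNA library and 1 OL library, which makes 24 libraries in 8 groups with n = 3. The Cre allele can also be active in Schwann cells, which limits the pull-down as a model of OLs.

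Myelin of the central nervous system carries proteins that make growth cones collapse, and this is a classic reason given for the poor regrowth of axons in the injured cord. Nogo (Rtn4) and OMgp (Omg), together with myelin-associated glycoprotein (Mag), bind the Nogo receptor NgR1 (Rtn4r), a surface protein without an intracellular part that signals into the axon through partners such as LINGO-1, p75NTR (Ngfr) and TROY (Tnfrsf19). Sema4D signals through plexin-B receptors, and ephrin-B3 through Eph receptors, above all EphA4 on corticospinal axons.

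Total counts per library ran from 25840127 to 29050061 in total RNA and from 29075211 to 32987841 in OL. All 8 markers of mature OLs passed the test for OL enrichment at each time point, with a median log2 fold change (Log2FC) of 2.59 to 2.70. Against naive, 1 of the 8 rose and 2 fell in OL at dpi 2 (median -0.19). At dpi 10 1 rose and 0 fell (-0.17), and at dpi 42 0 rose and 3 fell (-0.26). Of all tested genes 18.4%, 9.62% and 16.2% rose in OL at these times, and 20%, 8.59% and 16.9% fell. Markers of most other cells were also found in OL libraries. The summed level of 4 astrocyte markers was 901 to 11694 CPM (counts scaled to TMM-adjusted library size) there against 4253 to 7422 in total RNA. The third naive OL library stood apart from the other naive OL libraries, with an astrocyte sum of 7553 CPM against 1276 and 1124. Its Schwann cell marker sum was 627 CPM. For the ligand and receptor genes followed here, OL changes against naive are therefore also given without it, each beside its gene. For all other genes named, markers and paralogs included, OL changes are given only with it, and their dependence on it was not tested. Injured OL libraries with high astrocyte sums stayed in the fits without the third naive OL library. At dpi 2 this was library 3 (7442 CPM) and at dpi 10 library 2 (5940). At dpi 42 these were libraries 1 and 2 (11694 and 9767). Leaving them out together with the naive one was not tested. Both libraries of 1 dpi 2 pool, library 2 of total RNA and of OL, held 2604 and 2414 counts on Y-linked genes, against at most 13 in any other library. The labels of 2 libraries at dpi 42 conflict, and these were grouped by their descriptions. Library numbers of dpi 42 thus do not all pair. Total RNA library 2 and OL library 1 came from the same pool, as did total RNA library 1 and OL library 2.

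In OL the 4 ligands lay above the 5 receptor genes at each time point in mean level per kb. In naive OL libraries the mean level per kb of exon was 712 CPM for Efnb3, 437 for Rtn4, 207 for Omg and 153 for Sema4d, against 5.76 for Tnfrsf19, 1.51 for Rtn4r, 1.30 for Lingo1, 0.267 for Rtn4rl1 and 0.254 for Rtn4rl2. The ranges of neighbouring genes in this order were separate among the ligands and overlapped between Tnfrsf19 and Rtn4r, between Rtn4r and Lingo1, and between Rtn4rl1 and Rtn4rl2. At dpi 10 and 42 Sema4d stood above Omg in OL, with separate ranges per kb. In naive total RNA Rtn4 (117 CPM per kb) and Efnb3 (102) overlapped, followed by Omg (79.6), Sema4d (23.3) and Lingo1 (16.9), of which Sema4d and Lingo1 overlapped.

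OL enrichment, the fold between OL and total RNA of a time point, was of opposite sign for the ligands and most receptors. All 4 ligands were higher in OL at each time point, and Rtn4rl1 and Lingo1 were lower at each. Here and throughout, a gene passed when q, the p of edgeR's quasi-likelihood test adjusted over all tested genes, was under 0.05, and Log2FC is given ± SE. In naive tissue 7 of the 9 genes passed the test (4 higher, 3 lower), where 55.5% of all genes did (24.9% higher, 30.5% lower). At dpi 2 there were 7 (4 higher, 3 lower), beside 53.6% of all genes (24.8% higher, 28.8% lower). At dpi 10 the number was 6 (4 higher, 2 lower), beside 54% (25.2% higher, 28.8% lower). At dpi 42 it was 6 again (4 higher, 2 lower), beside 53.8% (24.9% higher, 28.9% lower). Here all genes means the 17167 tested. The shares of the 9 genes are read only beside that background.

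**Figure D1:**
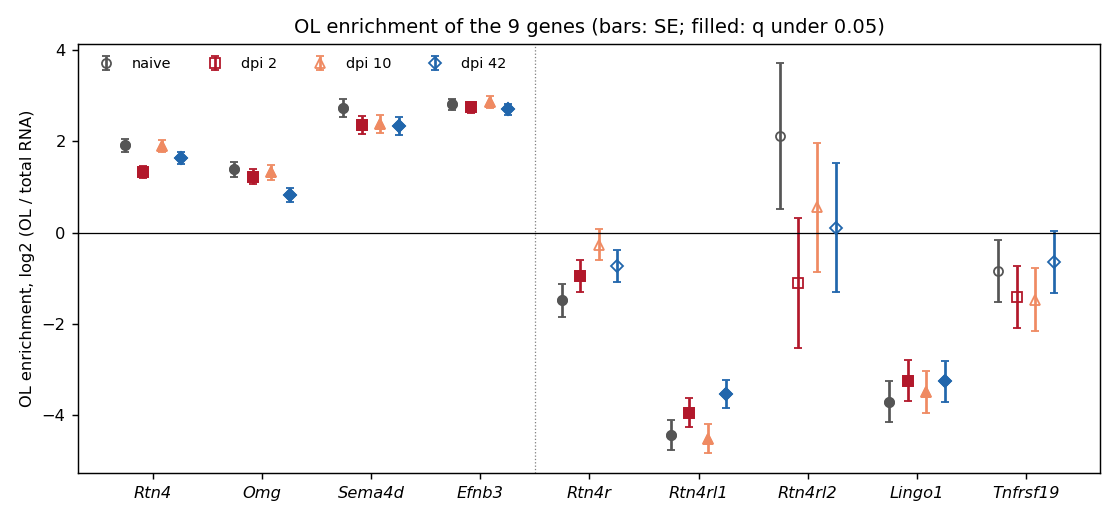
OL enrichment (log2 of OL over total RNA, vertical axis) of the 9 genes at 4 time points, with SE as bars and filled symbols where q is under 0.05. The 4 ligands lie above 0 at each time point (0.82 to 2.86), and Rtn4rl1 and Lingo1 lie at -3.24 or lower.

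Rtn4 encodes the Nogo proteins, of which Nogo-A is the myelin form, and lies at chr11:29692947-29744331 on the plus strand (GRCm38). Its counts sum over 10 annotated transcripts, and 18.4% of its exonic bases overlap exons of Eml6 on the other strand, so that these isoforms, and reads of Eml6 there, cannot be separated in a table whose strand setting is not given. In naive tissue its level was 3527, 3387 and 2256 CPM in the 3 OL libraries and 875, 834 and 735 CPM in total RNA. The groups were far apart, a 3.75-fold OL enrichment (Log2FC 1.91 ± 0.14 SE, q = 1.13e-10). At dpi 2 the OL libraries fell to 2081, 1776 and 1913 CPM, all below the naive ones (Log2FC -0.67 ± 0.13, q = 0.000366). At dpi 10 they held 2595, 2501 and 2435 CPM, a range that overlaps the naive one (Log2FC -0.28 ± 0.13, q = 0.151). At dpi 42 they were again below it, at 1710, 1779 and 2223 CPM (Log2FC -0.68 ± 0.13, q = 0.000429). Without the third naive OL library the OL changes were -0.91, -0.47 and -0.92, and that of dpi 10 then passed the test (q = 0.00657).

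In total RNA Rtn4 held 823, 719 and 772 CPM at dpi 2, 683, 687 and 655 at dpi 10, and 571, 633 and 636 at dpi 42. Its fall at dpi 42 passed the test (Log2FC -0.41 ± 0.13, q = 0.0289), while the values of dpi 2 (-0.08 ± 0.13, q = 0.688) and dpi 10 (-0.27 ± 0.13, q = 0.127) did not. In bulk tissue, fewer cells of a type and less RNA per cell cannot be told apart. The dpi 42 call was lost without total RNA library 1 or 2 of naive tissue or library 1 or 3 of dpi 42 (q = 0.0565 to 0.118). Differential OL enrichment, the change of OL enrichment from naive to injured tissue fitted with the tissue pool as a block, was -0.57 ± 0.13 for Rtn4 at dpi 2 (q = 0.0131), the single one of 9 genes to pass where 13.3% of all genes did (7.5% higher, 5.81% lower). That call was lost without naive total RNA library 1 (-0.50, q = 0.0633) or 2 (-0.50, q = 0.0648).

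Omg encodes OMgp, a protein anchored to the outer face of the membrane of OLs and neurons. It lies at chr11:79500982-79504084 on the minus strand, inside the gene Nf1 on the other strand but with no exonic base in common. It fell at all time points in both kinds of RNA. In OL its 3 libraries held 459, 505 and 423 CPM in naive tissue, 188, 129 and 224 at dpi 2, 256, 279 and 259 at dpi 10, and 183, 219 and 253 at dpi 42. No injured library reached the lowest naive one. The Log2FC was -1.36 ± 0.16 at dpi 2 (q = 1.13e-06), -0.80 ± 0.16 at dpi 10 (q = 0.00122) and -1.08 ± 0.16 at dpi 42 (q = 3.08e-05), and these calls held under every alternative run. They were, without the third naive OL library, -1.48, -0.87 and -1.19. In total RNA it held 182, 172 and 178 CPM in naive tissue, then 81.5, 67.7 and 82.7 at dpi 2, 108, 105 and 106 at dpi 10, and 119, 150 and 101 at dpi 42. These falls had a Log2FC of -1.20 ± 0.16 (q = 5.81e-06), -0.74 ± 0.16 (q = 0.00112) and -0.52 ± 0.16 (q = 0.0214). Total RNA at dpi 42 was above dpi 2 (0.67 ± 0.16, q = 0.00865), with separate libraries. The call of total RNA at dpi 42 was lost without naive library 1 or 3 or dpi 42 library 1 or 3 (q = 0.0557 to 0.129), and the rise from dpi 2 to dpi 42 was lost without library 2 of either group (q = 0.0657 and 0.067). Omg had the lowest estimate of OL enrichment among the ligands at each time point (1.38 in naive tissue, then 1.22, 1.32 and 0.82), and its differential OL enrichment at dpi 42 of -0.55 ± 0.22 did not pass (q = 0.162).

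Sema4d encodes a transmembrane semaphorin made by OLs and by lymphocytes and lies at chr13:51685529-51793747 on the minus strand. Its OL level was 1424, 1306 and 796 CPM in naive tissue, 857, 869 and 639 at dpi 2, 1900, 1496 and 1678 at dpi 10, and 1097, 1043 and 1406 at dpi 42. The dpi 2 libraries overlap the naive range, which the third library widens. The OL change at dpi 2 was -0.58 ± 0.18 (q = 0.0172), and -0.86 (q = 0.000345) without that library. It was lost without the first naive library (-0.48, q = 0.0743) or the third of dpi 2 (-0.51, q = 0.0556). At dpi 10 all OL libraries were above the naive ones, with a Log2FC of 0.52 ± 0.18 (q = 0.0534), and at dpi 42 it was 0.01 ± 0.18 (q = 1). Without the third naive library these were 0.31 (q = 0.244) and -0.26 (q = 0.25). Injured OL libraries with high astrocyte sums stayed in the fits without it and held the lowest Sema4d levels of their groups.

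In total RNA Sema4d rose at dpi 10, from 206, 185 and 145 CPM to 362, 315 and 299 (Log2FC 0.86 ± 0.19, q = 0.00105). At dpi 2 it held 171, 160 and 133 CPM and at dpi 42 it held 242, 211 and 248, and neither passed against naive (q = 0.412 and 0.146). All 7 microglia and macrophage markers rose in total RNA at each time point, and their summed level there was 87.2 to 107 CPM in naive tissue, 985 to 1260 at dpi 2, 2959 to 4092 at dpi 10 and 1646 to 2549 at dpi 42. Lymphocyte markers summed to at most 3.27 CPM in any library. The part of these cells in the Sema4d result was not tested. From dpi 2 to dpi 42 Sema4d rose in OL (0.58 ± 0.18, q = 0.0329) and total RNA (0.60 ± 0.19, q = 0.0427), the first lost without the third library of either group (q = 0.118 and 0.154) and the second without any 1 of the 6 libraries (q = 0.0548 to 0.159).

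Efnb3 encodes ephrin-B3, a membrane-bound ligand of Eph receptors, at chr11:69554092-69560205 on the minus strand. It had the highest estimate of OL enrichment of the 9 genes at each time point (Log2FC 2.70 to 2.86), next to Sema4d (2.34 to 2.72). Its OL libraries held 2310, 2506 and 1982 CPM in naive tissue and 1535, 1600 and 1210 at dpi 2, which lie below all naive values (Log2FC -0.65 ± 0.12, q = 0.000191). At dpi 10 the values were 2327, 1851 and 2081 CPM and at dpi 42 they were 1875, 1852 and 2181. Both sets overlap the naive range, and the tests did not pass (-0.12 ± 0.12, q = 0.56, and -0.20 ± 0.12, q = 0.209). Without the third naive OL library the 3 OL changes were -0.80, -0.21 and -0.35, and that of dpi 42 then passed (q = 0.0397). That fit kept OL libraries 1 and 2 of dpi 42, which had high astrocyte sums and the lowest Efnb3 levels of their group. Total RNA fell at dpi 2 from 344, 326 and 303 CPM to 222, 211 and 218 (Log2FC -0.58 ± 0.12, q = 0.000581). It held 321, 264 and 277 CPM at dpi 10 and 325, 311 and 275 at dpi 42, both overlapping naive tissue. From dpi 2 to dpi 42 it rose in OL (0.44 ± 0.12, q = 0.0131) and in total RNA (0.49 ± 0.12, q = 0.0109). The OL call was lost without the third library of dpi 2 or dpi 42 (q = 0.061 and 0.0686), and the total RNA call without dpi 2 library 2 or dpi 42 library 1 (q = 0.0549 and 0.0555).

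**Figure D2:**
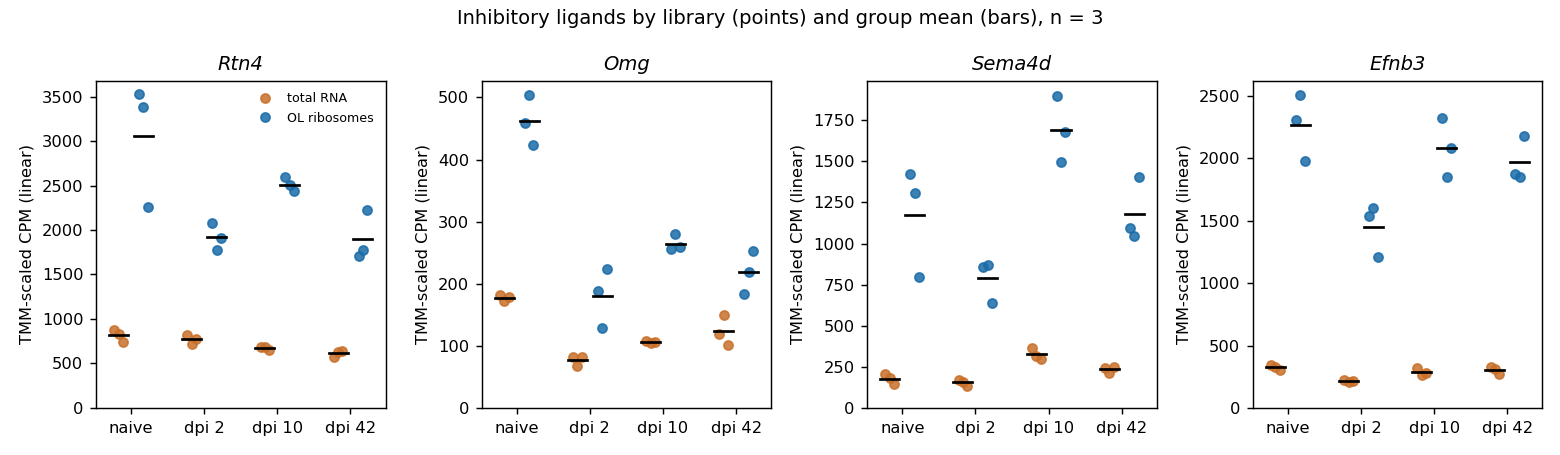
Level of the 4 ligands (TMM-scaled CPM, linear vertical axis from 0) by time point, with 1 point per library, orange for total RNA, blue for OL, and black bars for group means (n = 3). Omg lies below its naive OL libraries at each time after injury, and Sema4d peaks at dpi 10.

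The ligands whose OL levels fell at dpi 2 are read here as 1 count per gene although Rtn4 and Sema4d each have 3 annotated RefSeq starts (GRCm38.p6). Promoter windows, the 250 bases before a start, are shown for the 3 of those 6 starts whose window holds no exonic base, and for Rtn4r as the receptor of Rtn4. They are 5′ to 3′ on the gene's strand, and capitals mark the GC box GGGCGG on either strand, overlaps included, which 32.7% of 32851 windows of all genes hold. Windows were found for 6 of the 9 genes.
Rtn4, the first start, chr11:29692648-29692897, plus strand: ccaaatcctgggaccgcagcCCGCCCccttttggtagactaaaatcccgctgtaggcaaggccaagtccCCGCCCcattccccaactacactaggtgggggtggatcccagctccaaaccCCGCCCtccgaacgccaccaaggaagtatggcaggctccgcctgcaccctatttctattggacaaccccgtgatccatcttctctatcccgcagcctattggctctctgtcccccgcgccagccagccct
Rtn4, the third start, chr11:29718313-29718562, plus strand: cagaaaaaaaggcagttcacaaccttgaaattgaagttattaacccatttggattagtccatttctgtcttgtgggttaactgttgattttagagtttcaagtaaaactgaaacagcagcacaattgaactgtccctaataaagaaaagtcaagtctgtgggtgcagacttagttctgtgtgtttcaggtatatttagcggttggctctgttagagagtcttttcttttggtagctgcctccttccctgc
Sema4d, the third start, chr13:51739447-51739696, minus strand: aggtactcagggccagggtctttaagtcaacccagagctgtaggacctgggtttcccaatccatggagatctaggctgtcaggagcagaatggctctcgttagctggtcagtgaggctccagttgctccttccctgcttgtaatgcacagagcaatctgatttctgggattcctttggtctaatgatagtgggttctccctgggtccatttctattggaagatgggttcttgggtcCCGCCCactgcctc
Rtn4r, chr16:18127392-18127641, plus strand: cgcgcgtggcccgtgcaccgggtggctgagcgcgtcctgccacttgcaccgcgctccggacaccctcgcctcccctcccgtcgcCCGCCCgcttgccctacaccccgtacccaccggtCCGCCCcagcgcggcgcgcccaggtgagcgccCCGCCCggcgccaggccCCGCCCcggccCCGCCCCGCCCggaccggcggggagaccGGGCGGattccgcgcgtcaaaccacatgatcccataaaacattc
The 2 Rtn4 windows differ in make-up, with 12 CpG and 61.2% GC at the first start and 1 CpG and 39.2% GC at the third, where the median window holds 6 CpG and 52.4% GC. Rtn4r has 38 CpG and 7 GC boxes, the Sema4d window 2 CpG and 1 GC box, and the third Rtn4 start none of that motif. The cores ACAAAG and ACAATG that SOX factors bind, searched on both strands and held by 16.5% and 10.7% of all windows, occur in none of the 4, nor does TATAAA (12.4% of windows). The window of the first Sema4d start, which is not shown, holds 1 ACAATG. Which start was used was not measured.

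Rtn4r encodes NgR1, the shared receptor of Nogo, OMgp and MAG, at chr16:18127642-18152408. It was scarce in all libraries. In total RNA it held 7.28, 8.99 and 8.18 CPM in naive tissue, 4.62, 7.15 and 5.68 at dpi 2, 7.68, 6.00 and 5.45 at dpi 10, and 8.90, 8.72 and 5.35 at dpi 42. In OL it held 3.19, 4.15 and 1.42 CPM in naive tissue, 2.27, 3.65 and 3.14 at dpi 2, 4.50, 5.63 and 5.82 at dpi 10, and 4.75, 2.95 and 6.22 at dpi 42. It was lower in OL than in total RNA in naive tissue (Log2FC -1.48 ± 0.36, q = 0.00132) and at dpi 2 (-0.95 ± 0.36, q = 0.0297), and the libraries overlapped at dpi 10 (-0.26 ± 0.35, q = 0.549) and dpi 42 (-0.72 ± 0.35, q = 0.0889). The dpi 2 call was lost with the tissue pool as a replicate block (q = 0.0594) and without OL library 1 or total RNA library 2 or 3 of dpi 2 (q = 0.0511 to 0.109). None of its changes against naive passed, the nearest being the OL change at dpi 10 (0.87 ± 0.36, q = 0.102), where all 3 libraries were above the naive ones. Leaving out the third naive OL library gave OL changes of -0.35, 0.53 and 0.29 (q = 0.475, 0.333 and 0.591).

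Rtn4rl1 encodes NgR3, a homolog of NgR1 at chr11:75193783-75267769, and had the lowest estimate of OL enrichment of the 9 genes at each time point. Total RNA held 16.1, 20.9 and 24.5 CPM in naive tissue and OL 1.05, 0.973 and 0.803 CPM (Log2FC -4.44 ± 0.33, q = 1.98e-10). At dpi 42 the OL libraries held 3.08, 1.16 and 2.78 CPM, which are 88, 31 and 71 counts, all above the naive ones of 21 to 25 counts. This rise passed the test (Log2FC 1.31 ± 0.32, q = 0.00298), and without the third naive library it was 1.15 (q = 0.0186). Differential OL enrichment of Rtn4rl1 at dpi 42 did not pass (0.83 ± 0.50, q = 0.407). The part of RNA from other cells in the rise was not tested. At dpi 2 and dpi 10 the OL change was 0.34 and 0.42 (q = 0.459 and 0.422), and 0.17 and 0.32 without that library (q = 0.814 and 0.639). The call of the rise at dpi 42 was lost when only the 2 groups compared were fitted (q = 0.134). Against dpi 2, where OL held 1.06, 1.17 and 1.34 CPM, the libraries overlapped (0.97 ± 0.31, q = 0.0334), and that call was lost without dpi 2 library 1 or 2 or dpi 42 library 1 or 3 (q = 0.082 to 0.144). In total RNA it held 18.9, 18.8 and 17.2 CPM at dpi 2, 37.1, 25.9 and 23.4 at dpi 10 and 29.8, 21.5 and 29.7 at dpi 42, with no change passing (q = 0.184 to 0.685).

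Rtn4rl2 encodes NgR2, another homolog, at chr2:84871924-84886710, and was near the limit of detection. Its counts in total RNA were 5, 0 and 3 in naive tissue, 60, 96 and 17 at dpi 2, 38, 47 and 23 at dpi 10, and 24, 69 and 0 at dpi 42. In OL they were 0, 0 and 30 in naive tissue, 5, 40 and 14 at dpi 2, 54, 25 and 41 at dpi 10, and 17, 5 and 56 at dpi 42. A count of 0 allows up to 3 counts, and all naive libraries but the third OL one held 0 to 5. Summed Schwann cell markers in the same OL libraries were 0.0840, 0.465 and 627 CPM in naive tissue, 201, 639 and 282 at dpi 2, 1492, 898 and 833 at dpi 10, and 1198, 1174 and 1358 at dpi 42, and their part in the Rtn4rl2 counts was not tested. No comparison passed, and the nearest was total RNA at dpi 2 (q = 0.0507), where all 3 libraries exceeded the naive ones. Without the third naive OL library the naive OL group is at 0 and the OL changes of dpi 2, 10 and 42 passed (q = 0.022, 0.0201 and 0.0184), so that 1 library decides these calls.

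Lingo1 encodes LINGO-1, a signalling partner of NgR1 found in neurons and OL-lineage cells, at chr9:56618475-56796468. Total RNA held 66.8, 82.7 and 90.2 CPM in naive tissue and OL 7.69, 4.48 and 6.27 CPM, far below it (Log2FC -3.70 ± 0.46, q = 4.62e-07). Total RNA fell at dpi 2 to 41.9, 25.3 and 41.8 CPM, below each naive library (Log2FC -1.14 ± 0.41, q = 0.033). It held 47.0, 37.2 and 44.1 CPM at dpi 10 (-0.90 ± 0.41, q = 0.0988) and 53.2, 67.4 and 47.9 at dpi 42 (-0.51 ± 0.40, q = 0.409). Of 6 neuron markers 5 fell in total RNA at dpi 2, and their sum was 7792 to 8237 CPM in naive tissue, 3431 to 4375 at dpi 2, 3453 to 3931 at dpi 10 and 4227 to 6437 at dpi 42; their part in the Lingo1 result was not tested. The dpi 2 call was lost without any 1 of the 6 libraries other than the first of naive tissue (q = 0.0515 to 0.144). In OL it held 5.71, 1.22 and 4.59 CPM at dpi 2, 3.15, 5.94 and 2.36 at dpi 10 and 9.26, 5.79 and 2.50 at dpi 42, with no change passing. OL changes without the third naive OL library were -0.72, -0.68 and -0.12 (q = 0.259, 0.371 and 0.937).

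Tnfrsf19 encodes TROY, a TNF receptor family member that can stand in for p75NTR beside NgR1, at chr14:60963875-61046490. No library of total RNA left the range of 37.5 to 53.1 CPM, with 53.1, 49.0 and 45.6 CPM in naive tissue, 37.5, 46.0 and 45.4 at dpi 2, 45.9, 45.1 and 43.0 at dpi 10, and 37.7, 39.0 and 46.4 at dpi 42. In OL it scattered widely, at 8.24, 12.3 and 61.4 CPM in naive tissue, 13.5, 4.94 and 30.1 at dpi 2, 10.8, 24.2 and 13.4 at dpi 10, and 37.4, 38.2 and 3.48 at dpi 42. No comparison passed. The 5 OL libraries with the highest Tnfrsf19 were also the 5 with the highest astrocyte sum (5940 to 11694 CPM), and the other 7 held 901 to 2472 CPM. The same 5 had the highest summed level of 3 markers of OL precursors (OPCs), at 45.2 to 114 CPM against 17.2 to 31.5 in the other 7. The part of astrocyte or OPC RNA in these values was not tested. Without the third naive OL library its OL enrichment in naive tissue was -2.10 (q = 0.00992), against -0.85 ± 0.68 (q = 0.302) with it. The OL changes of -0.76, -0.76 and -0.05 turned to 0.60, 0.65 and 1.29 without it, and none passed (q = 0.511, 0.541 and 0.132).

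**Figure D3:**
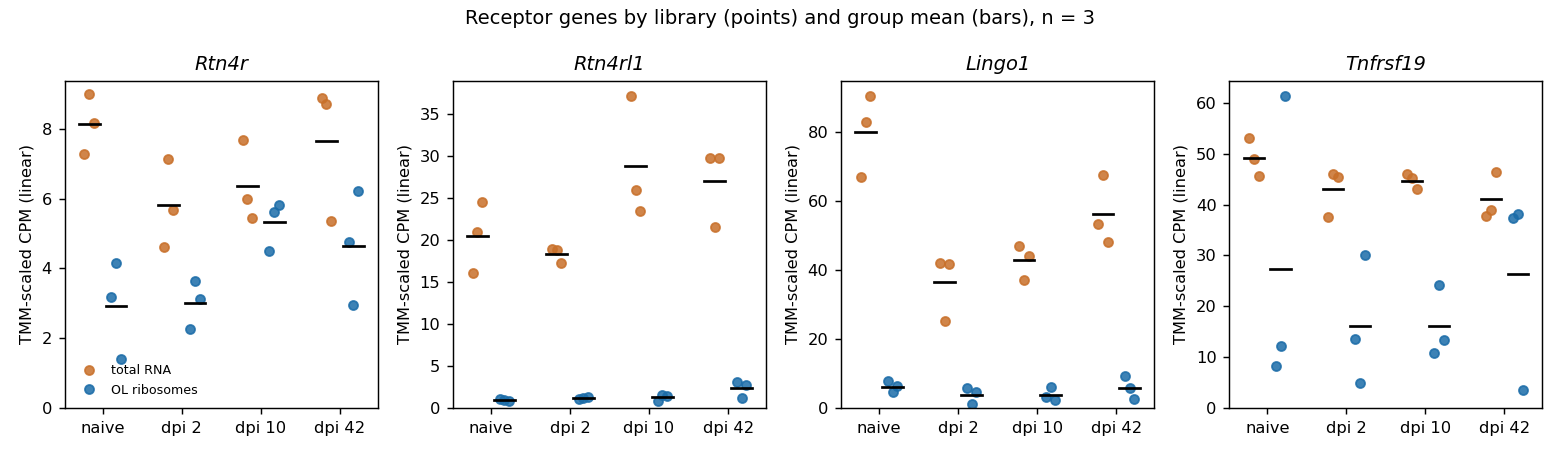
Level of 4 receptor genes (TMM-scaled CPM, linear vertical axis from 0) by time point, drawn as for the ligands (n = 3). Rtn4rl1 and Lingo1 stay far below total RNA in OL, and Tnfrsf19 spreads from 3.48 to 61.4 CPM between OL libraries.

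**Figure D4:**
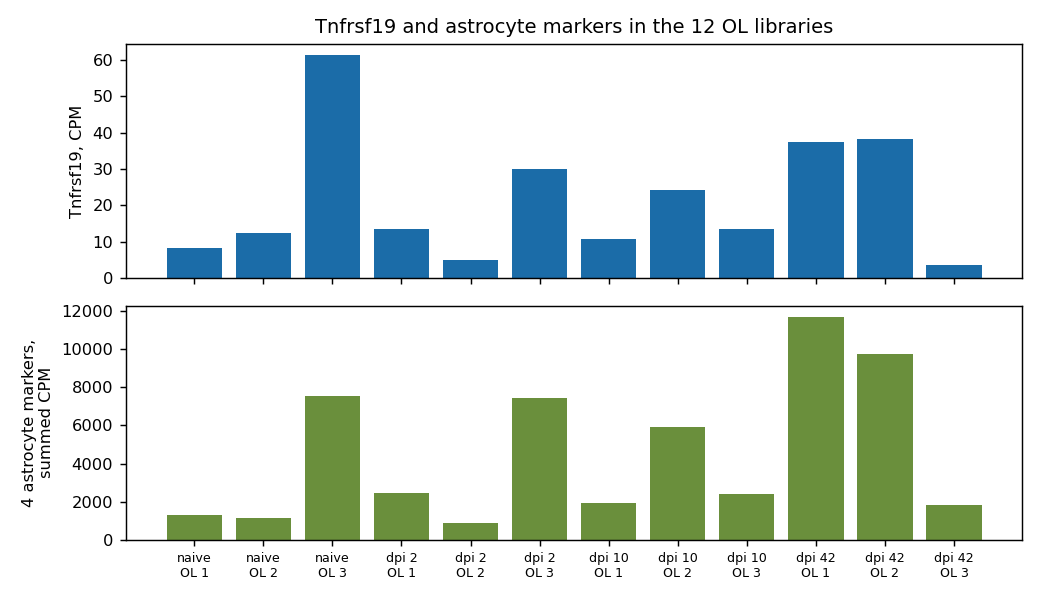
Tnfrsf19 (top, CPM) and the summed level of 4 astrocyte markers (bottom, CPM) in the 12 OL libraries, 1 bar each from 0. The 5 tallest bars of the upper panel belong to the same libraries as the 5 tallest of the lower one.

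Counted over the 9 genes, the OL change passed for 4 genes at dpi 2, all lower (Rtn4, Omg, Sema4d, Efnb3), where 38.4% of all genes passed (18.4% higher, 20% lower). The median OL change of the 9 genes was then -0.65, against 0 for all genes. At dpi 10 it passed for Omg alone, lower, beside 18.2% of all genes (9.62% higher, 8.59% lower). At dpi 42 it passed for 3 genes (Rtn4 and Omg lower, Rtn4rl1 higher), beside 33.1% (16.2% higher, 16.9% lower). Without the third naive OL library these OL calls held, with injured OL libraries of high astrocyte sum kept. Rtn4 at dpi 10 and Efnb3 at dpi 42 then also passed, both lower. Rtn4rl2 passed at each time, higher, with 0 counts in the naive OL libraries that remained. The share of all genes in that fit is not given here. In total RNA the change passed at dpi 2 for 3 genes, Omg, Efnb3 and Lingo1, all lower, beside 37.2% of all genes (16.4% higher, 20.8% lower). At dpi 10 Omg was lower and Sema4d higher, beside 32.1% (13.9% higher, 18.2% lower), and at dpi 42 Rtn4 and Omg were lower, beside 22.5% (10.4% higher, 12.1% lower). All these changes share the naive libraries. From dpi 2 to dpi 42, 3 genes rose in OL (Sema4d, Efnb3, Rtn4rl1), beside 17.6% of all genes (8.91% higher, 8.66% lower), and 3 rose in total RNA (Omg, Sema4d, Efnb3), beside 10.8% (5.17% higher, 5.59% lower). By edgeR, differential OL enrichment passed for none of the 9 genes at dpi 10, beside 7.63% of all genes (4.49% higher, 3.14% lower), or at dpi 42, beside 7.85% (4.34% higher, 3.51% lower). Unadjusted p was under 0.05 for 2 of the 9 at dpi 10 (Sema4d, Rtn4r) and for 2 at dpi 42 (Omg, Sema4d). The share of all genes at that unadjusted p was not counted. DESeq2 called 0 of the 9 at dpi 10, where it called 2120 of all genes. At dpi 42 it called 1 (Sema4d, q = 0.044), beside 2323 of all genes.

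**Figure D5:**
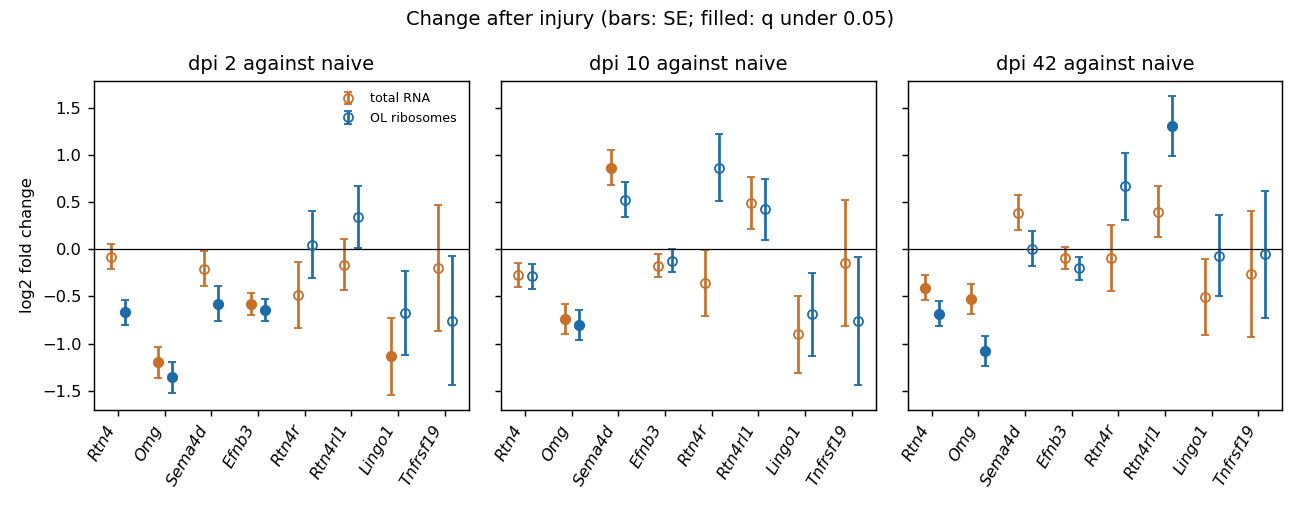
Log2 fold change against naive tissue (vertical axis) of 8 of the genes in total RNA (orange) and OL (blue) at dpi 2, 10 and 42, with SE as bars and filled symbols where q is under 0.05. Rtn4rl2, with 0 counts in 2 of 3 naive OL libraries, is not drawn. The 4 ligands have filled OL symbols below 0 at dpi 2.

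The wider receptor system was followed in lists of other genes, all of which passed the count minimum. Values of genes in these lists are given with all libraries, the third naive OL one included, and fits without it were not made for them. Of 9 partners of the Nogo receptors, 3 were higher and 4 lower in OL in naive tissue (median Log2FC -0.74, all genes -0.27). Of all genes 24.9% were higher and 30.5% lower. Mag, the third classic myelin inhibitor, was higher (Log2FC 3.40 ± 0.13, q = 3.17e-14), as were Ngfr (1.83 ± 0.53, q = 0.00522) and the receptor phosphatase gene Ptprf (1.20 ± 0.10, q = 1.46e-09). Ptprs, a receptor phosphatase that binds proteoglycans of the scar, was lower (-1.46 ± 0.17, q = 2.2e-07), as were Olfm1 (-0.74 ± 0.11, q = 5.67e-06) and Crtac1 (-0.87 ± 0.21, q = 0.00141). Against naive, OL levels of 2 partners rose at dpi 2 while 3 fell. At dpi 10 the split was 4 up and 1 down, and at dpi 42 it was 2 up and 3 down. Of all genes 18.4%, 9.62% and 16.2% rose in OL at the 3 times, and 20%, 8.59% and 16.9% fell. Olfm1, which encodes a secreted glycoprotein that binds NgR1, rose in OL at each time point (1.09 ± 0.11, 0.75 ± 0.11 and 0.73 ± 0.11, q = 1.33e-07, 5.41e-05 and 3.22e-05). Pirb, an immune receptor that also binds Nogo, rose in OL from at most 0.0846 CPM in naive libraries to 0.486 to 3.54 CPM after injury. Its naive level is below that of 3 counts there (0.115 to 0.127 CPM). Summed microglia and macrophage markers were 4.95 to 6.72 CPM in naive and 61.0 to 217 CPM in injured OL libraries. Their part in the Pirb values was not tested. Adgrb1, an adhesion receptor that binds Nogo receptors, fell in OL (-2.46 ± 0.40, -1.29 ± 0.38 and -1.23 ± 0.38, q = 4.24e-05, 0.0217 and 0.0164). Ptprf fell in OL at dpi 2 (-0.57 ± 0.10, q = 9.38e-05) and dpi 42 (-0.44 ± 0.10, q = 0.00188), as did Crtac1, which encodes a secreted antagonist of NgR1 (-0.68 ± 0.21, q = 0.0146, and -0.62 ± 0.21, q = 0.0274), and Ptprs rose at dpi 10 (0.52 ± 0.17, q = 0.0367). In total RNA 3 partners rose at each time, with 3 lower ones at dpi 2 and dpi 10 and 2 at dpi 42. Of all genes 16.4%, 13.9% and 10.4% rose there, and 20.8%, 18.2% and 12.1% fell. S1pr2, a receptor of sphingosine 1-phosphate that also binds Nogo-A, rose there at each time point (1.91 ± 0.27, 2.18 ± 0.28 and 1.26 ± 0.27, q = 1.15e-05, 3.87e-06 and 0.00174). Ngfr, the p75NTR partner, rose in total RNA at each time point (2.99 ± 0.54, 1.71 ± 0.52 and 2.31 ± 0.53, q = 0.000147, 0.0148 and 0.00302) and in OL at dpi 10 (1.76 ± 0.51, q = 0.0189). Summed Schwann cell markers were 0.0840 to 627 CPM in naive OL and 201 to 1492 CPM in injured OL libraries; their part in the Ngfr values was not tested.

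The list of Sema4D receptors holds plexin-B genes, Met and Cd72, and whether each binds Sema4D was not tested. All 5 genes of this list passed the test in naive OL enrichment, where 55.5% of all genes did. Plxnb3 (2.63 ± 0.15, q = 2.78e-12) and Plxnb1 (0.82 ± 0.17, q = 0.000281) were higher and Plxnb2, Met and Cd72 lower. The OL change passed for 4 of the 5 at each time point, 2 in each direction (median 0.69, 0.81 and 1.01, all genes 0). Of all genes 38.4%, 18.2% and 33.1% passed. Plxnb1 fell (Log2FC -1.32 ± 0.17, -0.66 ± 0.17 and -0.54 ± 0.17, q = 3.12e-06, 0.00871 and 0.017), as did Plxnb3 (-0.73 ± 0.14, -0.76 ± 0.14 and -1.17 ± 0.14, q = 0.000223, 0.000484 and 2.77e-06). Met, a receptor tyrosine kinase that pairs with plexin-B1, rose by 2.54 ± 0.36, 1.56 ± 0.35 and 1.44 ± 0.35 (q = 8.45e-06, 0.00334 and 0.00296). Cd72, a receptor of immune cells, rose by 3.00 ± 0.39, 3.13 ± 0.39 and 3.54 ± 0.39 (q = 3.12e-06, 7.31e-06 and 1.15e-06), and macrophage markers rose in the same OL libraries, with a summed level of 4.95 to 6.72 CPM in naive and 61.0 to 217 CPM in injured tissue.

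Of 6 receptors of ephrin-B3, 1 was higher and 4 were lower in OL in naive tissue, beside 24.9% and 30.5% of all genes. Ephb1 was the higher one, at each time point (2.64 to 2.80). In OL 3 of the 6 fell at dpi 2, a single one rose at dpi 10, and dpi 42 had 1 in each direction. The medians were -0.52, 0.29 and 0.03. Of all genes 20% fell at dpi 2, 9.62% rose at dpi 10, and 16.2% rose and 16.9% fell at dpi 42. Ephb2 fell in OL at dpi 2 (-0.64 ± 0.23, q = 0.0343) and rose at dpi 10 (0.90 ± 0.23, q = 0.00932), Ephb1 fell at dpi 2 (-0.40 ± 0.15, q = 0.0427), and Ephb4 rose at dpi 42 (1.80 ± 0.66, q = 0.0397). Epha4 fell in OL at dpi 2 (-1.68 ± 0.25, q = 1.59e-05) and dpi 42 (-1.14 ± 0.25, q = 0.00113), and in total RNA at each time point (-1.46 ± 0.25, -0.81 ± 0.24 and -0.72 ± 0.24, q = 6.65e-05, 0.0126 and 0.0358).

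The genes whose level followed each ligand most closely were ranked by Pearson's r of log2 CPM over the 12 OL libraries, among 13677 genes with a mean of at least 1 CPM. For Rtn4 these were Txndc16 (r = 0.9654), Ugt8a (0.9643) and Cpsf7 (0.9599). For Omg they were Cdh20 (0.982), Nedd4 (0.9816) and Prrc2a (0.98), for Sema4d Sv2a (0.96), Mical3 (0.9486) and Arhgap17 (0.9437), and for Efnb3 Trim3 (0.983), Rab2b (0.9826) and Arhgap23 (0.9772). All r for the 4 ligands are over the same 12 libraries, the third naive one included, and carry no test. Over all 24 libraries, which also hold the gap between OL and total RNA, the leading genes were Txndc16, Cdh20, Gas7 and Aplp1.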

How the data were processed

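Gene counts of 24 libraries were analysed, 12 of total RNA and 12 of OL RNA. The deposited table holds raw read counts that the authors made by aligning reads to mm10 (GRCm38.p6 in the labels) with STAR and counting with HTSeq 0.10.0 after FastQC 0.10.1; the strand setting is not given in the sources used here. The authors tested with DESeq2. Counts were fitted here in R 4.3.3 with edgeR 4.0.16 (glmQLFit, glmQLFTest), TMM scaling (0.742 to 0.899 for OL, 1.10 to 1.29 for total RNA), a minimum of 10 counts over all libraries (17167 genes) and 1 mean for each of 8 groups. Differential OL enrichment had the tissue pool as a block, after the study's methods. The adjusted p (q) is Benjamini-Hochberg's over every tested gene, and q under 0.05 counts as passing. The code was tested on simulated data.

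CPM values are TMM-scaled; levels per kb use the union of exons of GENCODE M21. Replicates are pools of separate mice. Total counts of 25840127 to 32987841 make 3 counts worth 0.0840 CPM or more in each library, a floor that covers counting error only. OL and total RNA libraries were paired through their shared lysate and the pool numbers of the column names. Deviations of the 2 libraries of a pool from their group means were correlated over genes. They gave 0.0408 to 0.1338 in naive tissue and 0.0833 to 0.108 at dpi 2. At dpi 10 they gave 0.0233 to 0.0621 and at dpi 42 -0.0103 to 0.0197. OL and total RNA libraries of different pools gave -0.1052 to 0.0505 in naive tissue and -0.0823 to -0.0153 at dpi 2. At dpi 10 they gave -0.0357 to 0.0119 and at dpi 42 -0.0294 to 0.0248. In naive tissue and at dpi 42 these ranges overlap those within pools, so there they do not tell pools apart.

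The 9 genes and all lists were chosen with earlier results of these data known. The text names all 9 genes, and other pathway genes only where q is under 0.05 in the comparison described (all if 5 or fewer of a list pass, otherwise up to 3 with the smallest unadjusted p in each direction). Alternatives were other scalings, DESeq2 1.42.0, other count minimums, blocks by pool or number, fits of the compared groups alone, and leaving out each library or pool. One further gene list is not reported here. Sequences are from RefSeq (GRCm38.p6).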

Additional observations from a re-analysis of the deposited data

Results flagged for a closer look

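Differential OL enrichment tests whether the contrast of OL with total RNA differs between injured and naive tissue (edgeR quasi-likelihood test with the tissue pool as a block, n = 3 pools per group), and its passing values among the 9 genes and the lists of Nogo receptor partners, Sema4D receptors and ephrin-B3 receptors are given here with no explanation. Rtn4 had a difference of -0.57 ± 0.13 at dpi 2 (q = 0.0131). On the same day it was -2.83 ± 0.45 for Ngfr (q = 0.00143), -1.86 ± 0.46 for S1pr2 (q = 0.0175) and -1.37 ± 0.37 for Adgrb1 (q = 0.0291). Olfm1 moved the other way at all 3 times, with 1.02 ± 0.13 at dpi 2, 1.06 ± 0.13 at dpi 10 and 0.85 ± 0.13 at dpi 42 (q = 0.000345, 0.000551 and 0.00229). Ptprs did so too, with 0.84, 0.88 and 0.70 (q = 0.00978, 0.0138 and 0.0384). For Plxnb3 the difference was -0.63 ± 0.15 at dpi 10 (q = 0.025) and -0.77 ± 0.15 at dpi 42 (q = 0.00896). Single libraries were left out for the 9 genes alone, and the Rtn4 call held in 22 of 26 alternatives. The other genes given here were not screened for single outlying samples.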

How the results depend on the processing

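Of 135 tests of the 9 genes 48 passed, and 34 of these passed under every alternative; none that passed changed its sign. The number of genes passing moved by more than 1.5 times in these cases. The OL change at dpi 10 passed for 1 gene, for 2 with DESeq2 size factors, 3 with library sizes alone, 2 with DESeq2's Wald test and 1 to 3 without 1 library. Of all genes 3126 passed in the main fit, 2991 with DESeq2 size factors, 2957 with library sizes alone and 3666 with the Wald test. The OL change at dpi 42 passed for 3 genes and for 3 to 5 without 1 library. Total RNA passed at dpi 42 for 2 genes, for 1 with library sizes alone, 0 with a total RNA library as TMM reference, 5 when only the groups compared were fitted and 0 to 2 without 1 library. Of all genes 3857 passed there in the main fit, 3338 with library sizes alone, 3206 with that TMM reference and 6256 with only the groups compared. At dpi 10 total RNA passed for 5 genes, against 2, with only the groups compared, and for 8877 of all genes, against 5519. Differential OL enrichment passed at dpi 2 for 1 gene, for 2 with library sizes alone or the other TMM reference and 0 to 2 without 1 library. Of all genes 2285 passed there in the main fit, 2385 with library sizes alone and 2553 with the other TMM reference. At dpi 10 it passed for 1 with the other TMM reference (1362 of all genes, against 1310). At dpi 42 it passed for 3 with that reference (1887, against 1347), 1 with DESeq2's Wald test (2323) and 0 to 3 without 1 library. From dpi 2 to dpi 42, 3 genes passed in OL, 0 with only the groups compared and 0 to 3 without 1 library, and 3 in total RNA, 6 with only the groups compared, 1 without the 2 libraries whose labels conflict, and 0 to 2 without 1 library.

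Without those 2 libraries no call against naive tissue was lost; from dpi 2 to dpi 42 Rtn4rl1 in OL (0.72, q = 0.153) and Omg (q = 0.0522) and Sema4d (q = 0.0581) in total RNA were. With library sizes alone the OL enrichment of Omg at dpi 42 (0.32, q = 0.0888) and the OL change of Sema4d at dpi 2 (q = 0.0668) were lost. Library sizes alone and the TMM reference of total RNA each lost total RNA calls of Lingo1 at dpi 2 (q = 0.0976 and 0.0597), Rtn4 (0.0998 and 0.166) and Omg (0.0863 and 0.0856) at dpi 42, and Sema4d from dpi 2 to dpi 42 (0.0591 and 0.0673). Fitting only the groups compared lost the OL change of Sema4d at dpi 2 (q = 0.137) and the OL enrichment of Rtn4r at dpi 2 (q = 0.0869). For the differential OL enrichment, leaving out the replicate block changed no call and turned the value of Rtn4 at dpi 10 to -0.013. The pool as a replicate block gave -0.16 for OL enrichment of Rtn4rl2 at dpi 42 and lost that of Rtn4r at dpi 2. Replicate numbers do not pair pools across times; a block by number gave 0.44 for the OL change of Tnfrsf19 at dpi 42 and -0.44 for Rtn4rl2 from dpi 2 to dpi 42 in OL, and lost Rtn4rl1 there (q = 0.0677).

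Values that did not pass turned sign as follows, and the cause was not tested. With DESeq2 size factors or its Wald test Rtn4 had a differential OL enrichment of -0.013 at dpi 10, and Rtn4rl2 0.20 with the Wald test. Library sizes alone gave an OL enrichment of Rtn4rl2 of -0.026 at dpi 10 and -0.38 at dpi 42; OL changes at dpi 42 of 0.079 for Lingo1 and 0.0498 for Tnfrsf19; total RNA changes at dpi 2 of 0.14 for Rtn4, 0.016 for Sema4d, 0.058 for Rtn4rl1 and 0.026 for Tnfrsf19, at dpi 10 of 0.0066 for Efnb3 and 0.039 for Tnfrsf19, and at dpi 42 of 0.033 for Efnb3 and Rtn4r; and differential OL enrichment at dpi 10 of -0.054 for Rtn4 and -0.0076 for Efnb3. The other TMM reference gave OL changes of -0.075 for Rtn4r at dpi 2 and -0.12 for Sema4d at dpi 42, total RNA changes of 0.056 for Rtn4 at dpi 2, 0.012 for Tnfrsf19 at dpi 10, and 0.016 for Efnb3 and 0.018 for Rtn4r at dpi 42, and differential OL enrichment at dpi 10 of -0.23 for Rtn4, -0.18 for Efnb3 and -0.092 for Lingo1. Only the groups compared gave total RNA changes of 0.04 for Rtn4 at dpi 2, 0.0089 for Tnfrsf19 at dpi 10, and 0.019 for Efnb3 and 0.021 for Rtn4r at dpi 42. Without the 2 libraries with conflicting labels the differential OL enrichment at dpi 42 was 1.48 for Rtn4rl2 and -0.32 for Tnfrsf19, and Rtn4 in OL from dpi 2 to dpi 42 was 0.057.

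Leaving out 1 library or pool gave these ranges of values that crossed 0. OL enrichment ran from -4.35 to 3.48 in naive tissue and -1.80 to 1.52 at dpi 42 for Rtn4rl2, and from -0.43 to 0.0011 at dpi 10 for Rtn4r. OL changes at dpi 2 ran from -0.35 to 0.39 for Rtn4r, -0.15 to 7.54 for Rtn4rl2 and -1.62 to 0.66 for Tnfrsf19, at dpi 10 from -1.19 to 0.66 for Tnfrsf19, and at dpi 42 from -0.26 to 0.17 for Sema4d, -0.059 to 7.91 for Rtn4rl2, -0.62 to 0.29 for Lingo1 and -0.56 to 1.36 for Tnfrsf19. Total RNA changes at dpi 2 ran from -0.15 to 0.067 for Rtn4, -0.34 to 0.039 for Sema4d and -0.31 to 0.025 for Rtn4rl1, and at dpi 42 from -0.21 to 0.11 for Rtn4r. Differential OL enrichment at dpi 2 ran from -0.37 to 0.056 for Efnb3, -0.015 to 0.90 for Rtn4r, -4.68 to 2.95 for Rtn4rl2, -0.22 to 0.69 for Lingo1 and -1.15 to 0.63 for Tnfrsf19. At dpi 10 it ran from -0.25 to 0.081 for Rtn4, -0.25 to 0.027 for Omg, -0.11 to 0.13 for Efnb3, -0.45 to 0.35 for Rtn4rl1, -2.81 to 4.73 for Rtn4rl2, -0.46 to 0.46 for Lingo1 and -0.91 to 0.79 for Tnfrsf19. At dpi 42 it ran from -3.57 to 4.02 for Rtn4rl2, -0.13 to 0.69 for Lingo1 and -0.51 to 1.42 for Tnfrsf19. From dpi 2 to dpi 42 the OL values ran from -0.16 to 0.081 for Rtn4 and -0.996 to 1.47 for Rtn4rl2. Rtn4rl2 held at most 96 counts in any library, and its pools differed widely (0 to 30 counts in naive OL, 0 to 69 in total RNA at dpi 42).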

Other observations

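Of 13 paralogs of the ligands and of Lingo1, 2 were higher and 9 lower in OL in naive tissue by edgeR. Values of paralogs are given with all libraries, the third naive OL one included, and fits without it were not made for them. Of all genes 24.9% were higher and 30.5% lower. The reticulon genes Rtn1 (Log2FC -4.78 ± 0.25, q = 1.08e-12) and Rtn2 (-2.75 ± 0.14, q = 1.26e-12) and the semaphorin gene Sema4f (-4.12 ± 0.23, q = 4.13e-12) were lower, and Sema4c (2.20 ± 0.19, q = 3.15e-09) and Efnb1 (0.71 ± 0.26, q = 0.0241) higher. In OL the numbers of paralogs up and down were 2 and 2 at dpi 2, 2 and 1 at dpi 10, then 1 and 1 at dpi 42. Of all genes 18.4%, 9.62% and 16.2% rose, and 20%, 8.59% and 16.9% fell. Rtn3 fell at each time point (-0.65 ± 0.10, -0.29 ± 0.10 and -0.37 ± 0.10, q = 1.91e-05, 0.0424 and 0.00538). At dpi 2 Sema4b (1.30 ± 0.44, q = 0.0229) and Sema4c (0.62 ± 0.19, q = 0.0105) rose and Lingo2 fell (-0.85 ± 0.28, q = 0.0222). Sema4g rose at dpi 10 (1.15 ± 0.23, q = 0.00137) and dpi 42 (0.78 ± 0.23, q = 0.0129), and Sema4f at dpi 10 (1.25 ± 0.22, q = 0.000406).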
